A study of Mus musculus with 12 samples.

Results

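Expression of 10 genes of glutathione, Nrf2-dependent and metallothionein defence was followed in microdissected olfactory epithelium of mice: Slc7a11, Gclc, Gclm, Gsr, Txnrd1, Srxn1, Nqo1, Hmox1, Mt1 and Mt2. The genes were chosen with earlier results of these data known, and their probe sets (groups of short probes for 1 transcript) were found by name, as all that the platform annotation pairs with 1 of these symbols. This gave 20 of the 45101 probe sets on the array. All 20 passed the filter on dim signal, which asked for a signal above the array's own 40th percentile on at least 3 of the 12 arrays. Each gene was read from its probe set with the highest mean, so the 10 genes are 10 of 13628 genes tested.

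The study compared macrophage-depleted with non-depleted mice, with and without injury, to look for macrophage contributions to loss, protection and renewal of olfactory neurons. All mice were wild-type (w/t) C57BL/6J males aged 6 weeks, in 4 groups of 3 arrays. Lip-C mice received liposomes loaded with clodronate, a compound that kills the phagocytes that engulf it, as 50 µl into the nose on each of 3 consecutive days and 200 µl into a tail vein on the first and last of these days. Lip-O mice received empty liposomes on the same plan and are the controls of the depletion. On the second day both olfactory bulbs were removed (OBX) or a sham operation was done, and tissue was taken at 48 h. Loss of the bulb severs olfactory axons, and the neurons then die. The nasal doses were aimed at macrophages of the epithelium and the venous doses at part of the blood monocytes, and every group carried liposomes and surgery, so no group here shows untreated tissue. Titles call the replicates biological. The sources used here do not say if an array holds pooled mice. The p-values set a difference between groups only against the spread of these arrays within groups.

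The 10 genes belong to linked lines of defence against oxidants, electrophiles and metals. Nrf2 (gene Nfe2l2) is a transcription factor that Keap1 holds back and marks for degradation, and that is released when oxidants or electrophiles modify Keap1. It then binds antioxidant response elements with a small Maf partner and drives genes of glutathione synthesis, thioredoxin recycling and quinone reduction, while Bach1 represses several of the same sites. Metallothioneins are small cysteine-rich proteins that bind zinc and copper, and the zinc-sensing factor MTF-1 drives them through metal response elements. The olfactory epithelium meets inhaled chemicals directly, and its sustentacular cells are known for a dense content of detoxifying enzymes.

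Promoter sequences are shown for Gclm, Mt1 and Mt2, the genes that OBX raised when averaged over both liposome treatments. Motifs of both factors were looked for in them. Nqo1, which OBX lowered, was searched as well but its window is not printed. Windows are the 250 bases before the annotated start in RefSeq (GRCm38.p6), 5′ to 3′ on the gene's strand, with every match to a searched motif in capitals. The motifs were the antioxidant response element core TGACNNNGC and the metal response element core, searched as TGCACNC and TGCGCNC, all on both strands. Gclm lies at chr3:122245307-122245556 on the plus strand, Mt1 at chr8:94178839-94179088 on the plus strand and Mt2 at chr8:94172368-94172617 on the plus strand.
Gclm: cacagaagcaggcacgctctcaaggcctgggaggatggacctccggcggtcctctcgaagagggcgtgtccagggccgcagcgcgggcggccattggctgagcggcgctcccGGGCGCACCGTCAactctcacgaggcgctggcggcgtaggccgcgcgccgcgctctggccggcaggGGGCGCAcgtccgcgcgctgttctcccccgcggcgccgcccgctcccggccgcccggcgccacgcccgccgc
Mt1: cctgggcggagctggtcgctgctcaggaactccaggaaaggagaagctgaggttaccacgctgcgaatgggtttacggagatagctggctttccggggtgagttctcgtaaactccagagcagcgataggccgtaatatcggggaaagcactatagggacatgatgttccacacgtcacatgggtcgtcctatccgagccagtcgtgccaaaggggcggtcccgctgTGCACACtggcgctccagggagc
Mt2: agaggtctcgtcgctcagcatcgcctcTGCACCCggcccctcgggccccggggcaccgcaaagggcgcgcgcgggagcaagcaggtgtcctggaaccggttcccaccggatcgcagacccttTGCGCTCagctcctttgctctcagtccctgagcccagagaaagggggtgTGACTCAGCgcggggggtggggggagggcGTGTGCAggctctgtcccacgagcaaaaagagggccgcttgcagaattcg

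The Gclm window held 1 antioxidant element core, whose 9 bases ran from 134 to 126 bases before the start, and 2 metal element cores, of which the one from 138 to 132 overlaps it. The Mt2 window held 1 antioxidant core and 3 metal cores, and the Mt1 window held 1 metal core and no antioxidant core. Of 32851 mouse promoter windows of this length, 10.2% held an antioxidant core, 21.4% held a metal core and 1.26% held 3 or more metal cores. Promoters of 7 of the 10 genes were in the sequence table. A Txnrd1 start held 1 antioxidant core, the Srxn1 window held 1 metal core, and the Nqo1 and Slc7a11 windows held neither motif. A match is a stretch of letters, not a measured binding site. The window is set by the start in the table, and elements outside it were not searched. Within it, only the spellings given above were searched, so a variant of either core would be missed. A low count, as for Mt1, therefore does not show that a gene lacks such elements nearby.

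Signals were on the linear scale of the deposited values and had been brought to a common level, with a mean of 500 on each array after trimming 2%. Array medians ran from 117.5 to 134.2, and arrays of 1 group correlated with each other at 0.970 to 0.987. Changes are differences of log2(signal + 16) from limma, given with their standard error (SE), and adjusted p-values are Benjamini-Hochberg values over all genes tested in a comparison, called at 0.05. The median SE of a log2 change between groups was 0.12. Of 10 listed markers of mature olfactory neurons, 9 had a probe set annotated to that gene alone, and these 9 passed the filter. Of 9 listed markers of sustentacular cells, the supporting cells of this epithelium, 8 had one, and these 8 passed. In whole tissue, fewer cells of a type and less RNA per cell cannot be told apart.

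After OBX in Lip-O mice, Gclm and Mt2 were the 2 of the 10 genes that rose, by 1.32-fold and 1.31-fold, and none fell. Gclm encodes the modifier subunit of the enzyme that limits glutathione synthesis. Across all genes 19.6% were called in this comparison, 10.7% as higher and 8.89% as lower, so 2 of 10 is close to the background. On the probe sets used, 9 of the 10 differences were positive, with a median of 0.28 against 0.05 over all genes. Of the probe sets not used, that of Slc7a11 (-0.31 ± 0.55) and those of Txnrd1 (-0.49 ± 0.14 and -0.37 ± 0.17) were negative. The dimmest of Srxn1 was negative too (-0.01 ± 0.36), and the rest were positive. When the processing was varied or an array left out, the sign turned for Slc7a11 and Txnrd1 (both down to -0.24). Gclm and Mt1 were also the 2 genes whose Lip-O OBX arrays all lay above the Lip-O sham arrays, a pattern that 21.6% of all genes showed, while none of the 10 lay fully below (16.2% of all genes). Nqo1 was the gene with a negative difference on the probe set used.

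After OBX in Lip-C mice, Nqo1 was the 1 gene of the 10 that passed the test, and it fell by 0.79 on the log2 scale. Across all genes 19.2% were called there, 10.3% as higher and 8.86% as lower. The median difference of the 10 genes was -0.11 against 0.04 over all genes, with 4 positive and 6 negative. The arrays of both groups did not overlap for Gclm and Mt1, which were higher after OBX (23% of all genes), and for Nqo1, which was lower (17.1%). Averaged over both liposome treatments, OBX raised Gclm, Mt1 and Mt2 and lowered Nqo1, where 32.7% of all genes were called, 19.2% as higher and 13.5% as lower.

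**Figure D1:**
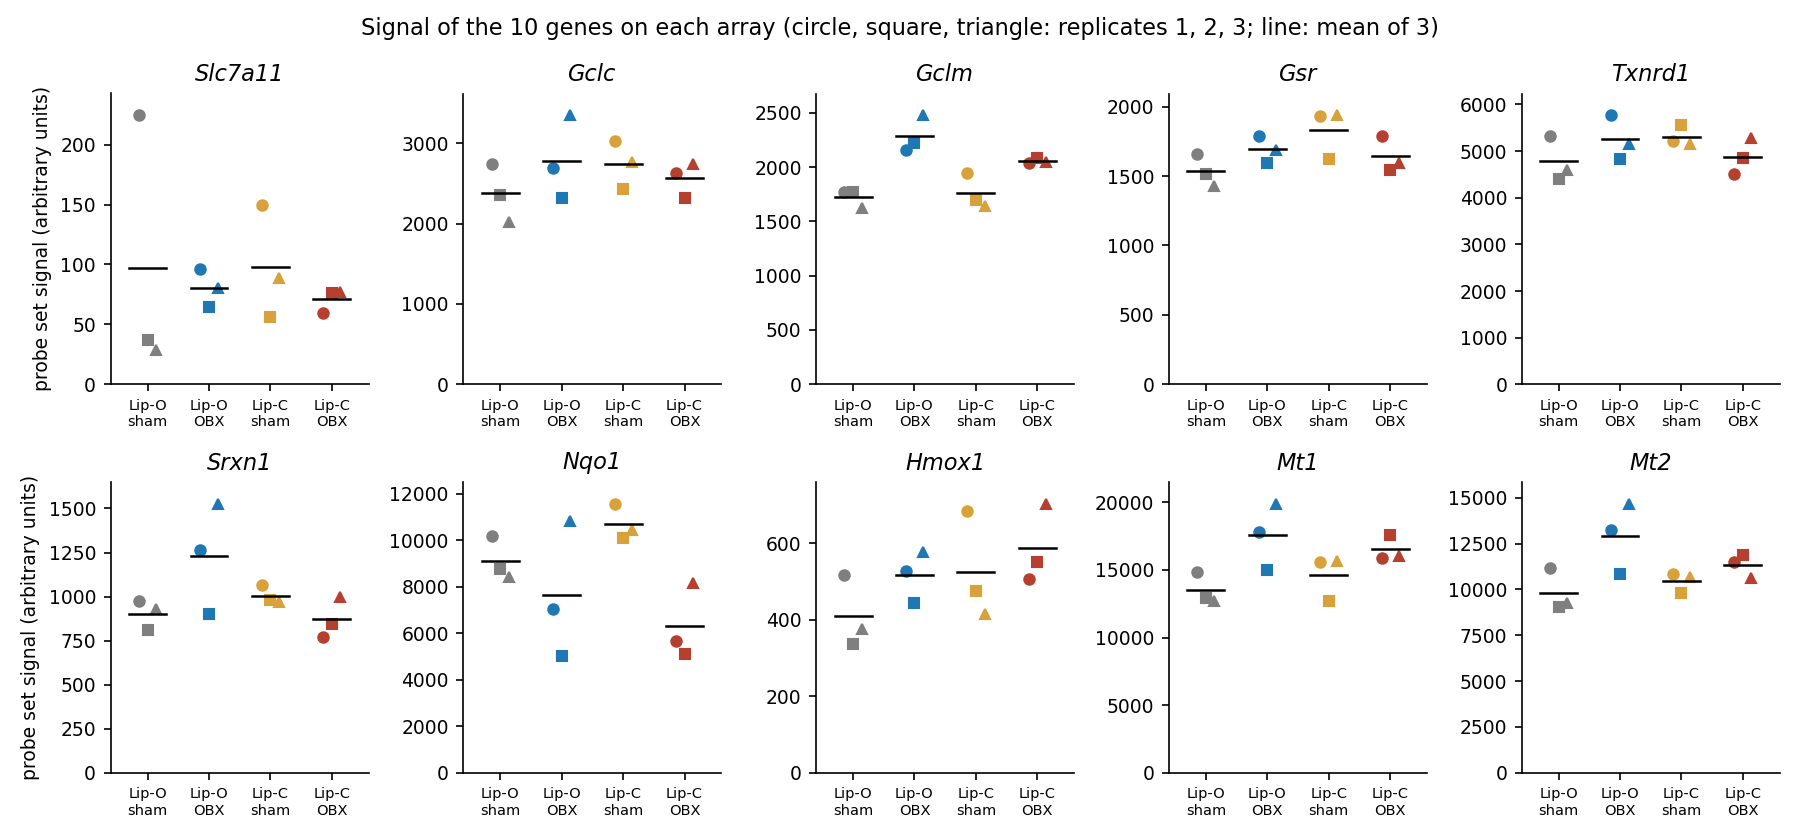
Probe set signal (arbitrary units, linear axis from 0) of the 10 genes on each of the 12 arrays, by group; circles, squares and triangles are replicates 1, 2 and 3, and lines are means of 3 arrays. Gclm in Lip-O OBX mice lies at 2161 to 2479, above all 9 other arrays, and the Nqo1 signal of Lip-O OBX mice spans 5024 to 10826.

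**Figure D2:**
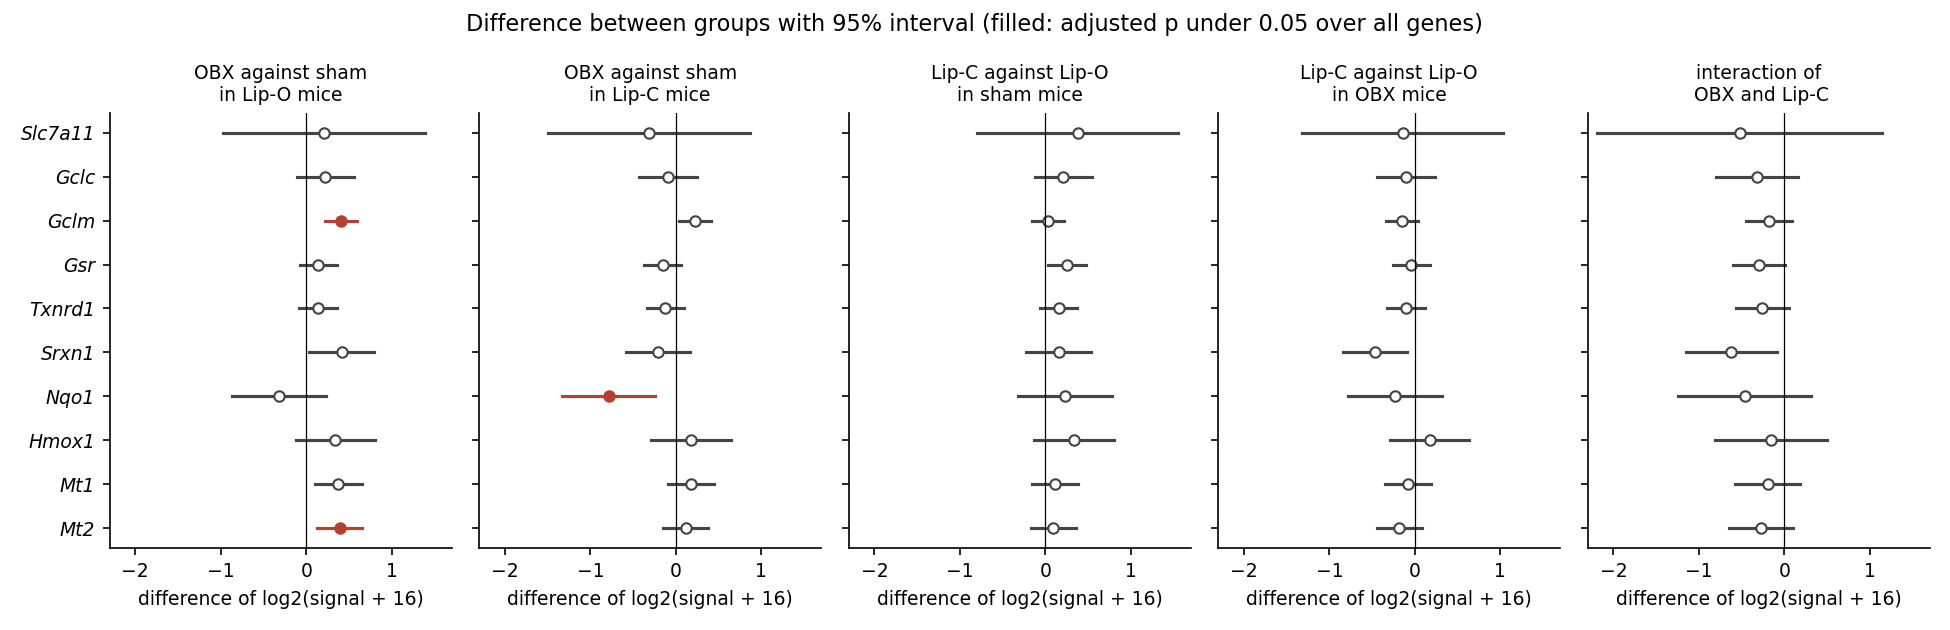
Differences of log2(signal + 16) for the 10 genes in 5 comparisons, with 95% intervals from limma; filled points have an adjusted p under 0.05 over all genes. Filled points are Gclm and Mt2 for OBX in Lip-O mice and Nqo1 for OBX in Lip-C mice, and no point is filled in either Lip-C comparison or in the interaction.

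Slc7a11, the carrier that brings cystine into cells in exchange for glutamate, was dim and variable. Its signals were 225, 36.9 and 28.9 in Lip-O sham mice and 96.5, 64.9 and 80.2 in Lip-O OBX mice. They were 149.5, 56.2 and 88.8 in Lip-C sham mice and 59.7, 76.4 and 76.7 in Lip-C OBX mice. Lip-O sham replicate 1 stood above the other 11 arrays, and did so on the second probe set too, where it read 169 and the other 11 ran from 17.0 to 108. The probe set used exceeded the 40th percentile on 7 of 12 arrays. OBX in Lip-O mice gave 0.20 ± 0.53 (adjusted p = 0.825), so a change of Slc7a11 was not resolvable here.

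Gclc encodes the catalytic subunit of glutamate-cysteine ligase, which joins glutamate and cysteine in the limiting step of glutathione synthesis. Its signals were 2746, 2356 and 2027 in Lip-O sham mice, 2693, 2315 and 3354 in Lip-O OBX mice, 3031, 2432 and 2769.6 in Lip-C sham mice and 2627, 2321.5 and 2743 in Lip-C OBX mice. All 4 groups overlapped, and the highest array was Lip-O OBX replicate 3. The OBX difference was 0.22 ± 0.15 (adjusted p = 0.335) in Lip-O mice and -0.10 ± 0.15 (adjusted p = 0.692) in Lip-C mice. The second Gclc probe set gave 0.24 ± 0.13 in Lip-O mice, with an adjusted p of 0.216 over 28986 probe sets.

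Gclm, whose product lowers the amount of glutamate the catalytic subunit needs and eases its inhibition by glutathione, gave the clearest result of the 10. Its signals were 1771, 1774 and 1624 in Lip-O sham mice and 2161, 2225 and 2479 in Lip-O OBX mice. They were 1947, 1696 and 1644.5 in Lip-C sham mice and 2035, 2081 and 2042 in Lip-C OBX mice. Both OBX groups lay above both sham groups on every array, and the Lip-O OBX arrays also lay above the Lip-C OBX arrays. OBX raised Gclm in Lip-O mice, 0.40 ± 0.09 (adjusted p = 0.00971), and the call held under all 22 alternatives run, with adjusted p-values up to 0.0405. In Lip-C mice the difference was 0.22 ± 0.09 (adjusted p = 0.0906), which missed the threshold, but passed it at 0.0475 without Lip-C sham replicate 1, the highest of its group. Averaged over both liposome treatments the change was 0.31 ± 0.06 (adjusted p = 0.00346).

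The second Gclm probe set gave a larger contrast between the liposome treatments. It read 815, 882 and 772 in Lip-O sham mice and 1132, 1198 and 1359 in Lip-O OBX mice, against 1148, 914 and 966 in Lip-C sham mice and 984, 1044 and 1057 in Lip-C OBX mice. Groups did not overlap in Lip-O mice, and did in Lip-C mice, where sham replicate 1 was the highest array. In the fit over all 28986 probe sets, where 16.9% were called for OBX in Lip-O mice, its OBX difference was 0.57 ± 0.11 (adjusted p = 0.00673) in Lip-O mice and 0.03 ± 0.11 (adjusted p = 0.873) in Lip-C mice. The interaction, which tests whether the OBX change differed between Lip-C and Lip-O mice, was -0.54 ± 0.15 (adjusted p = 0.112) for this probe set and -0.18 ± 0.12 (adjusted p = 0.457) for the one used. Neither passed the threshold.

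Gsr encodes glutathione reductase, which returns oxidised glutathione to its reduced form with NADPH. Its signals were 1656.5, 1515 and 1429.6 in Lip-O sham mice and 1934, 1626 and 1939.8 in Lip-C sham mice. After OBX they were 1792, 1595 and 1690.4 in Lip-O mice and 1791, 1544 and 1594.5 in Lip-C mice. The sham groups overlapped only through Lip-C sham replicate 2 and Lip-O sham replicate 1. The Lip-C difference in sham mice was 0.25 ± 0.10 (adjusted p = 0.17), the largest of the 10 genes relative to its SE in that comparison. The second Gsr probe set was not called in any comparison either.

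Txnrd1 encodes cytosolic thioredoxin reductase, and its probe sets disagreed. The brightest read 5333, 4407 and 4598 in Lip-O sham mice and 5774, 4837 and 5157 in Lip-O OBX mice, with 5219, 5558 and 5162 in Lip-C sham mice and 4519.6, 4853 and 5274 in Lip-C OBX mice. All pairs of groups compared overlapped, the sham groups through Lip-O sham replicate 1 alone, and OBX in Lip-O mice gave 0.14 ± 0.10 (adjusted p = 0.361). A dimmer probe set read 1158, 1001.5 and 1020.2 in Lip-O sham mice and 849, 738 and 667 in Lip-O OBX mice. It read 656, 903 and 666 in Lip-C sham mice and 653, 691 and 759 in Lip-C OBX mice. Here the Lip-O sham arrays lay above all 9 others. In the fit over all probe sets it fell after OBX in Lip-O mice, -0.49 ± 0.14 (adjusted p = 0.0338), and gave -0.52 ± 0.14 (adjusted p = 0.0551) for Lip-C in sham mice. The remaining probe set gave -0.37 ± 0.17 (adjusted p = 0.152) for OBX in Lip-O mice. The direction for Txnrd1 therefore depends on the probe set, and which transcripts each probe set reads was not tested.

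Srxn1 encodes sulfiredoxin, which repairs over-oxidised peroxiredoxins. Its signals were 973, 807.5 and 929 in Lip-O sham mice, 1265, 901.5 and 1528 in Lip-O OBX mice, 1067, 981 and 967 in Lip-C sham mice and 770.2, 845 and 1000.0 in Lip-C OBX mice. Lip-O OBX replicates 1 and 3 were the 2 highest arrays, and replicate 2 lay among the sham arrays. OBX in Lip-O mice gave 0.41 ± 0.17 (adjusted p = 0.115), and 0.0177 was the adjusted p without Lip-O OBX replicate 2. Lip-C against Lip-O in OBX mice gave -0.47 ± 0.17 (adjusted p = 0.283), the largest difference of the 10 genes relative to its SE in that comparison, and the interaction was -0.62 ± 0.24 (adjusted p = 0.221). The other 3 Srxn1 probe sets gave -0.01 to 0.28 for OBX in Lip-O mice and -0.44 to -0.23 for Lip-C in OBX mice, none of them called.

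**Figure D3:**
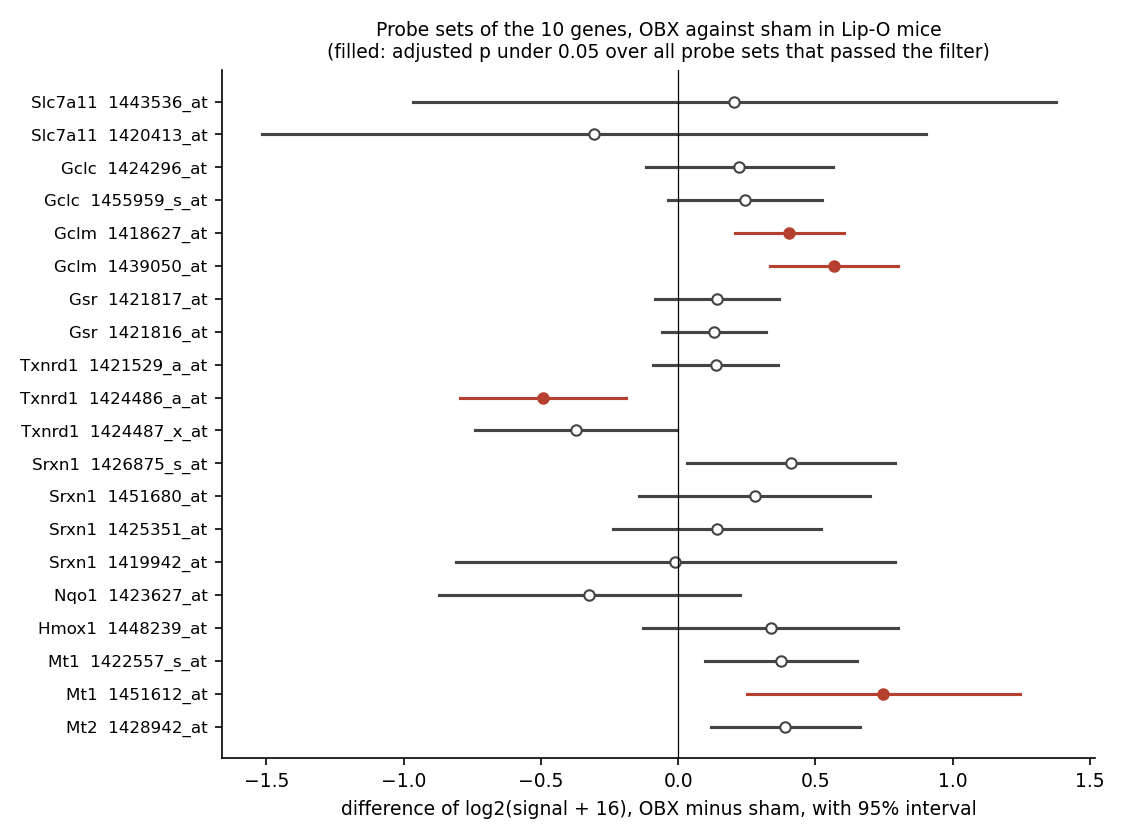
OBX minus sham in Lip-O mice for all 20 probe sets of the 10 genes, as differences of log2(signal + 16) with 95% intervals; filled points have an adjusted p under 0.05 over 28986 probe sets. Both Gclm probe sets and the dimmer Mt1 probe set lie to the right and the dimmer of the Txnrd1 probe sets described above to the left of 0, while the Mt2 probe set, called over genes at 0.0441, has an adjusted p of 0.0529 over probe sets.

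Nqo1, an enzyme that reduces quinones without leaving a reactive intermediate and a classic Nrf2 target, was the gene that fell. Its signals were 10176.5, 8777 and 8421 in Lip-O sham mice and 11574, 10113 and 10436.5 in Lip-C sham mice. After OBX they were 7056, 5024 and 10826 in Lip-O mice and 5677, 5103.5 and 8175 in Lip-C mice. All Lip-C OBX arrays lay below all Lip-C sham arrays, while Lip-O OBX replicate 3 lay above every Lip-O sham array. OBX lowered Nqo1 in Lip-C mice, -0.79 ± 0.25 (adjusted p = 0.0493), and gave -0.32 ± 0.25 (adjusted p = 0.395) in Lip-O mice. The interaction was -0.46 ± 0.35 (adjusted p = 0.525), so the OBX change was not shown to differ between the liposome treatments. The call in Lip-C mice lay close to the threshold and was lost under 14 of 22 alternatives (adjusted p up to 0.157). These include leaving out any 1 of the 6 sham arrays, replicate 1 of Lip-O OBX, or replicate 1 or 2 of Lip-C OBX. Averaged over both liposome treatments the change was -0.56 ± 0.18 (adjusted p = 0.0338), a call lost under 11 of 21 alternatives (adjusted p up to 0.0785), among them without the same arrays other than Lip-O sham replicate 3, or without Lip-O OBX replicate 2.

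Mature olfactory neuron genes were also lower after OBX. Their list of 10 (9 tested) includes Omp, a marker of mature olfactory neurons, and Cnga2 and Adcy3, parts of odorant transduction. The summed signal of the 9 genes was 85245 to 98111 in Lip-O sham mice and 92052 to 98480 in Lip-C sham mice. It was 42474, 44376 and 69375 in Lip-O OBX mice and 61371, 61395 and 75478 in Lip-C OBX mice, so no OBX array reached a sham array. Of the 9 genes 8 fell after OBX in Lip-O mice (8.89% of all genes) and 6 in Lip-C mice (8.86%), and none rose. In both OBX groups replicate 3 had the highest sum and the highest Nqo1 signal. The mean sum went from 91380 to 52075 in Lip-O mice and from 95156 to 66081 in Lip-C mice, so the larger drop of the sum was in Lip-O mice and the larger Nqo1 difference in Lip-C mice, and neither contrast between treatments passed the interaction test for Nqo1 or any of the 9 genes. Lip-O OBX replicate 3 combined a sum below every sham array with a Nqo1 signal above every Lip-O sham array. The part of the neuron genes in the Nqo1 result was not tested.

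**Figure D4:**
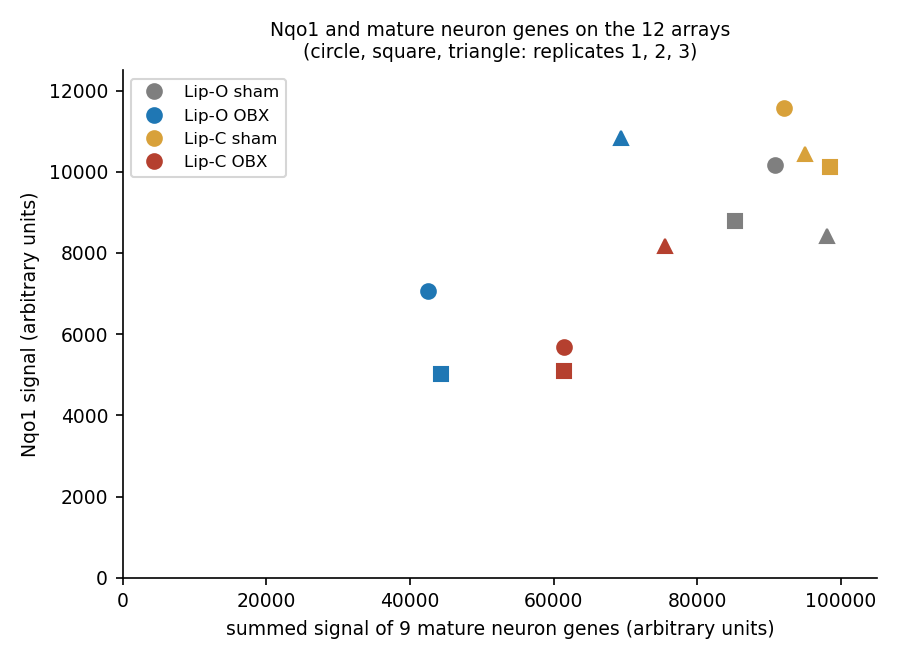
Nqo1 signal (y axis, arbitrary units) against the summed signal of 9 mature neuron genes (x axis, arbitrary units) on the 12 arrays, coloured by group; circles, squares and triangles are replicates 1, 2 and 3. Sham arrays lie at sums of 85245 to 98480 and OBX arrays at 42474 to 75478, and Lip-O OBX replicate 3 has a Nqo1 signal of 10826 at a sum of 69375.

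Hmox1 encodes the inducible heme oxygenase, which breaks heme into biliverdin, iron and carbon monoxide and is also made by macrophages that clear red cells. Its signals were 518, 336 and 376 in Lip-O sham mice, 528.5, 443.5 and 578.5 in Lip-O OBX mice, 685.5, 475 and 415 in Lip-C sham mice and 508, 552 and 704 in Lip-C OBX mice. All groups overlapped, and the highest arrays were Lip-C OBX replicate 3 and Lip-C sham replicate 1. The differences were 0.34 ± 0.21 (adjusted p = 0.287) for OBX in Lip-O mice and 0.34 ± 0.21 (adjusted p = 0.383) for Lip-C in sham mice. The summed signal of 19 tested macrophage genes, such as Csf1r and Cd68, was 13323 to 25183 in Lip-O sham, 19844 to 33908 in Lip-O OBX, 12063 to 18806 in Lip-C sham and 19535 to 26252 in Lip-C OBX mice. Of the 19, 2 were lower with Lip-C in sham mice (0.814% of all genes) and none with Lip-C in OBX mice (0.22%). OBX raised 5 in Lip-O mice (10.7% of all genes) and 9 in Lip-C mice (10.3%). Erythroid genes (3 tested of 7) summed to 455 to 1877 in Lip-O sham, 1053 to 2892 in Lip-O OBX, 593 to 1453 in Lip-C sham and 1652 to 3563 in Lip-C OBX mice. Their part in the Hmox1 values was not tested.

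Mt1 and Mt2 encode the widely expressed metallothioneins. The Mt1 signals were 14847, 12889 and 12709.7 in Lip-O sham mice and 17823, 14962 and 19904 in Lip-O OBX mice. They were 15607, 12682 and 15639.6 in Lip-C sham mice and 15909, 17559 and 16057 in Lip-C OBX mice. OBX arrays lay above sham arrays within each liposome treatment. The difference was 0.37 ± 0.12 (adjusted p = 0.0551) in Lip-O mice, short of the threshold, and 0.18 ± 0.12 (adjusted p = 0.324) in Lip-C mice. It passed in Lip-O mice under 5 of 22 alternatives, among them without Lip-O OBX replicate 2 or without Lip-C sham replicate 2 (lowest adjusted p 0.0279). The dim second Mt1 probe set read 155, 115 and 165 in Lip-O sham and 271, 179 and 327 in Lip-O OBX mice, and rose there by 0.75 ± 0.23 (adjusted p = 0.0446) in the fit over all probe sets.

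The Mt2 signals were 11158, 9045 and 9285 in Lip-O sham mice and 13251, 10855 and 14687 in Lip-O OBX mice. They were 10857, 9800.3 and 10672.5 in Lip-C sham mice and 11488, 11854 and 10607 in Lip-C OBX mice. Lip-O OBX replicate 2 lay below Lip-O sham replicate 1, so these groups overlapped, and OBX replicate 3 was the highest of all 12 arrays. OBX raised Mt2 in Lip-O mice, 0.39 ± 0.12 (adjusted p = 0.0441), and gave 0.12 ± 0.12 (adjusted p = 0.523) in Lip-C mice, with an interaction of -0.27 ± 0.17 (adjusted p = 0.427). The call was lost under 13 of 22 alternatives (adjusted p up to 0.131), including leaving out replicate 2 or 3 of Lip-O sham, replicate 1 or 3 of Lip-O OBX, or any Lip-C array other than OBX replicate 3. Averaged over both liposome treatments OBX raised Mt1, 0.28 ± 0.09 (adjusted p = 0.0328), and Mt2, 0.25 ± 0.08 (adjusted p = 0.0422). The Mt1 call was lost under 9 of 21 alternatives and the Mt2 call under 12, with adjusted p-values up to 0.104 and 0.0917. Both were lost without replicate 2 or 3 of Lip-O sham, 1 or 3 of Lip-O OBX, 2 of Lip-C sham, or 1 or 2 of Lip-C OBX, and the Mt2 call also without Lip-C sham replicate 1 or 3. The suffix of the Mt1 probe set used marks probes that can match more than 1 transcript, and whether they separate Mt1 from Mt2 was not tested.

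With Lip-C, none of the 10 genes was called in sham mice, in OBX mice or averaged over both. Of all genes 2.1% were called in sham mice, 1.28% as higher and 0.814% as lower. In OBX mice 0.345% were, 0.125% as higher and 0.22% as lower, and averaged over both 1.59% were, 0.77% as higher and 0.822% as lower. On the probe sets used, all 10 differences in sham mice were positive, from 0.03 (Gclm) to 0.38 (Slc7a11), with a median of 0.18 against 0.00 over all genes. There 1 gene, Gsr, had an unadjusted p under 0.05, as 21.9% of all genes did. Of the probe sets not used, those of Txnrd1 (-0.52 ± 0.14 and -0.33 ± 0.17) and 1 of Srxn1 (-0.003 ± 0.19) were negative, and the rest were positive. Over the alternatives run, the sign in sham mice turned for Gclm (down to -0.04), Slc7a11 (-0.07) and Txnrd1 (-0.23). Among the probe sets used, no gene's Lip-C sham arrays lay fully above or below the Lip-O sham arrays, which 16.2% and 13.5% of all genes did. In OBX mice 9 of 10 were negative, with a median of -0.13 against 0.01, and Srxn1 was the 1 gene with an unadjusted p under 0.05, as 12.7% of all genes had. Of the probe sets not used, that of Gsr (0.07 ± 0.09) and the dimmest of Txnrd1 (0.06 ± 0.17) were positive there, and the rest were negative. Over the alternatives run, the sign in OBX mice turned for Gclc (up to 0.03), Gsr (0.01), Mt1 (0.01) and Nqo1 (0.06). Gclm was the gene whose Lip-C OBX arrays all lay below the Lip-O OBX arrays, which 7.81% of all genes did, at -0.15 ± 0.09 (adjusted p = 0.485), and none lay fully above (8.22%). The Lip-O sham arrays serve both the Lip-C comparison in sham mice and the OBX comparison in Lip-O mice, and the Lip-O OBX arrays likewise serve 2 comparisons, so the signs of these comparisons are linked. Intervals were wide enough to hold moderate changes: for Hmox1 in sham mice the 95% interval ran from -0.13 to 0.80.

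On the probe sets used, the interaction was negative for all 10 genes, with a median of -0.29 against 0.00 over all genes. Of the probe sets not used, those of Txnrd1 were positive, 0.42 ± 0.19 (adjusted p = 0.278) and 0.39 ± 0.23 (adjusted p = 0.406). The rest were negative. Among the alternatives run, the sign turned for Txnrd1 (up to 0.18) and Hmox1 (up to 0.04). limma called none of the 10 at an adjusted p under 0.05 and none of the 13628 genes (0%), and the ordinary linear model without moderation called none of either. At an unadjusted p under 0.05, 1 of the 10 (Srxn1) and 2405 of all genes (17.6%) passed. All 10 values come from the same 12 arrays, and are not independent, so the shared sign carries no test.

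Arrays of 1 group stood apart for many of the 10 genes at once. Within Lip-O OBX, replicate 3 was the highest array for 7 genes and replicate 2 the lowest for 9, all but Gclm. Within Lip-O sham, replicate 1 was the highest for 9 genes, again all but Gclm. In Lip-C sham replicate 1 was the highest for 7 genes, and in Lip-C OBX replicate 3 for 6. Gclm had the smallest SE of the 10 genes.

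Over the 12 arrays, the profiles most like each called gene were found by the root mean square difference of log2 values centred on each gene's own mean. Mt1 was the nearest of all genes to Mt2, at 0.07, followed by Creg1 at 0.07 and Urod at 0.08, where the SD of Mt2 over the arrays was 0.20. Acadm, Perp (0.07 each) and Rac1 (0.08) were nearest to Gclm, which had an SD of 0.19. A930006K02Rik (0.16), Dclre1b and 4933440N22Rik (0.17 each) were nearest to Nqo1, with an SD of 0.43. The 12 arrays share 4 groups, so these values describe likeness and carry no test.

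Regulators of the 10 genes were read on the same arrays. Nfe2l2 itself fell after OBX in Lip-O mice, from 5175 ± 531 to 3990.4 ± 504 (SD, n = 3 each), with a log2 difference of -0.38 ± 0.11 (adjusted p = 0.0375), and gave -0.10 ± 0.11 (adjusted p = 0.552) in Lip-C mice. Keap1 rose after OBX in Lip-O mice, from 935 ± 41.4 to 1122 ± 67.8 (SD, n = 3 each), with a log2 difference of 0.26 ± 0.07 (adjusted p = 0.0345), and gave 0.08 ± 0.07 (adjusted p = 0.477) in Lip-C mice. Bach1 gave 0.18 ± 0.10 (adjusted p = 0.227) and 0.18 ± 0.10 (adjusted p = 0.215) and was called in no comparison. The Nfe2l2 call was lost without replicate 1 or 3 of Lip-O sham, 1 or 2 of Lip-O OBX, or 2 or 3 of Lip-C sham (adjusted p up to 0.134). The Keap1 call was lost without any 1 of the 3 Lip-O sham arrays or Lip-O OBX replicate 1 or 2 (up to 0.107). Both calls were also lost with no filter, with averaged probe sets and with only the groups compared in the fit. The Nfe2l2 call was lost without moderation too, and the Keap1 call with every probe set tested. Of 10 regulators tested, 2 rose and 1 fell after OBX in Lip-O mice (30%, with 19.6% over all genes) and 1 rose in Lip-C mice (10%, with 19.2% over all genes), with medians of 0.16 and 0.12. The 2 were 0 without replicate 1 or 3 of Lip-O sham or replicate 1 of Lip-O OBX, and 1 without any other Lip-O array. The 1 in Lip-C mice was 0 without any 1 of the Lip-C sham arrays or replicate 2 or 3 of Lip-C OBX. Nrf2 is controlled mainly through the turnover of its protein, which these arrays do not measure.

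Mtf1, which encodes MTF-1, was called in 2 of the 4 comparisons between groups. It rose with Lip-C in sham mice, from 462 ± 54.8 to 663 ± 28.9 (SD, n = 3 each), with a log2 difference of 0.51 ± 0.09 (adjusted p = 0.0305), and fell after OBX in Lip-C mice, from 663 ± 28.9 to 514 ± 31.4 (SD, n = 3 each), with a log2 difference of -0.36 ± 0.09 (adjusted p = 0.0269). Lip-C in OBX mice gave 0.21 ± 0.09 (adjusted p = 0.4), OBX in Lip-O mice gave -0.05 ± 0.09 (adjusted p = 0.748) and the interaction was -0.31 ± 0.13 (adjusted p = 0.264). The first call was lost without Lip-O sham replicate 2 or 3 or any 1 of the Lip-C sham arrays (adjusted p up to 0.0949), and the second without replicate 2 or 3 of Lip-C sham, or 1 or 2 of Lip-C OBX. With no filter, averaged probe sets or only the groups compared in the fit, the first call was also lost. Both comparisons share the Lip-C sham arrays. Mt1 and Mt2 were called in neither of them.

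A wider set of 168 genes in 9 lists of glutathione, redox and metal handling, without the 10 genes, had 146 tested. After OBX in Lip-O mice 37 rose and 8 fell (30.8%, with 19.6% over all genes), with a median of 0.25 against 0.05. After OBX in Lip-C mice 18 rose and 6 fell (16.4%, with 19.2% over all genes), with a median of 0.10 against 0.04. With Lip-C, 6 rose in sham mice (4.11%, with 2.1% over all genes) and 1 in OBX mice (0.685%, with 0.345%). Without any 1 array these counts ran from 2 to 6 and from 0 to 3. Some genes are on several lists, and the lists were drawn up with earlier results of these data known. The count of 45 in Lip-O mice was 25 without Lip-O sham replicate 2, 20 without Lip-O sham replicate 3 and 17 without Lip-O OBX replicate 1. The count of 24 in Lip-C mice was 11 without Lip-C sham replicate 2, 10 without replicate 3, and 8 without Lip-C OBX replicate 1 or replicate 2. Genes named below from these lists, other than Nfe2l2, Keap1, Bach1 and Mtf1, are genes with at least 1 call that kept an adjusted p under 0.05 without any single array, a choice made after their values were seen.

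**Figure D5:**
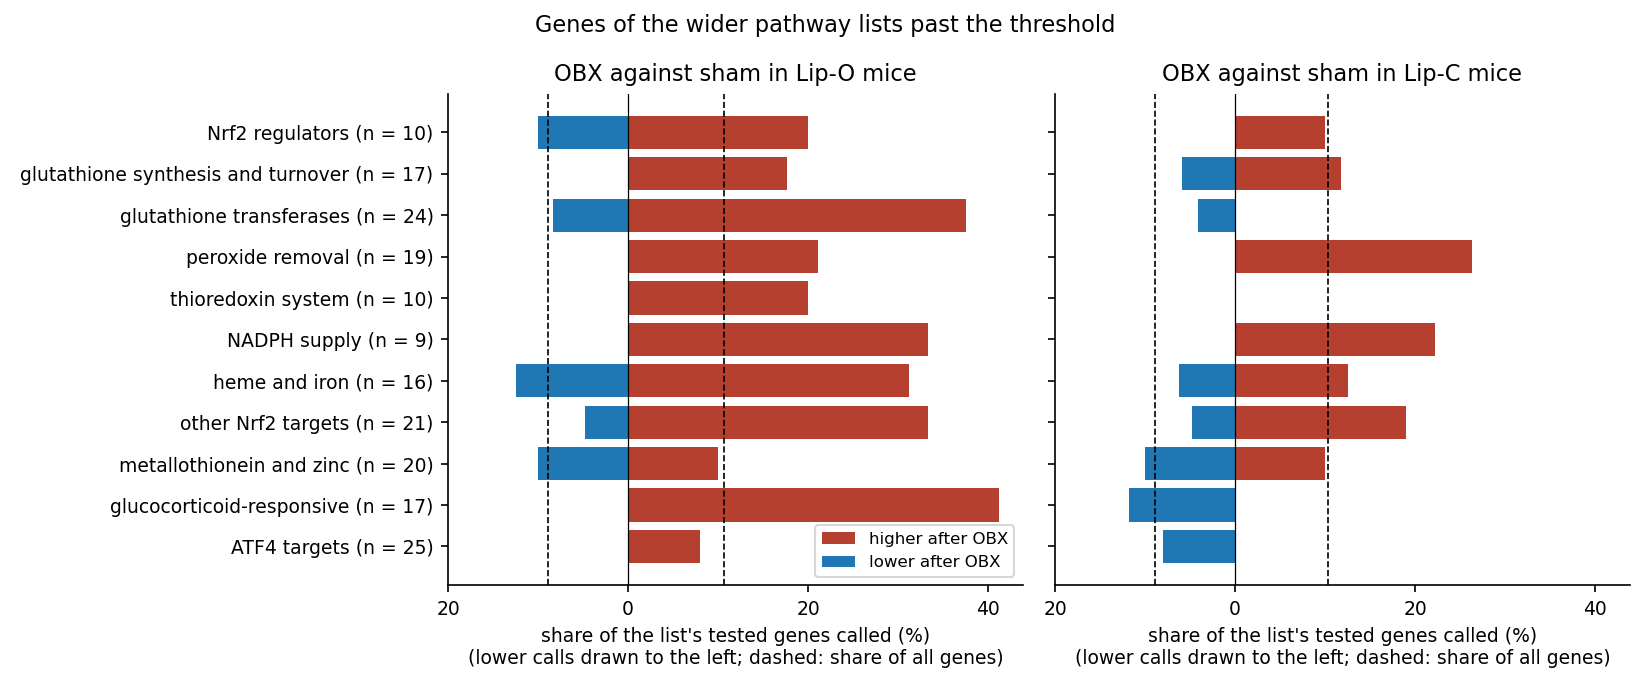
Share of the tested genes of 11 lists that rose (right) or fell (left) after OBX in each liposome treatment, in percent; dashed lines are the shares of all 13628 genes called higher and lower. Glutathione transferases show 9 of 24 genes higher in Lip-O mice and none in Lip-C mice, while peroxide removal shows 4 and 5 of 19.

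Glutathione transferases, which couple glutathione to electrophiles, gave the largest count among the 9 lists: of 24 tested, 9 rose and 2 fell after OBX in Lip-O mice (45.8%, with 19.6% over all genes), with a median of 0.30, and none rose and 1 fell in Lip-C mice (4.17%, with 19.2%), with a median of 0.18. Gstm5, a mu-class enzyme, rose from 11519.8 ± 1818 to 17664 ± 2070.0 (SD, n = 3 each), with a log2 difference of 0.62 ± 0.13 (adjusted p = 0.00958). Gstm7 rose from 346 ± 29.4 to 655 ± 74.7 (SD, n = 3 each), with a log2 difference of 0.89 ± 0.12 (adjusted p = 0.00155), and this call was lost where a gene's probe sets were averaged. Gstt3 rose from 1531 ± 109 to 2256 ± 181 (SD, n = 3 each), with a log2 difference of 0.55 ± 0.11 (adjusted p = 0.00877), and Gstk1, a mitochondrial and peroxisomal form, rose from 933 ± 73.8 to 1324 ± 126 (SD, n = 3 each), with a log2 difference of 0.50 ± 0.11 (adjusted p = 0.0107). Gsto2, an omega-class enzyme that reduces dehydroascorbate, fell from 124 ± 11 (SD, n = 3) to 60.1 ± 21.3 (SD, n = 3) (adjusted p = 0.00434), where the second value lies under the arrays' 40th percentiles of 65.3 to 79.3. The 9 genes that rose were 4 when replicate 2 of Lip-O sham, or replicate 1 of Lip-O OBX, was left out, and 5 without replicate 3 of Lip-O sham. No transferase was called in the interaction. In Lip-C mice these 5 genes were not called after OBX, with differences of 0.18 ± 0.13 (adjusted p = 0.353) (Gstm5), 0.15 ± 0.12 (adjusted p = 0.379) (Gstm7), 0.22 ± 0.11 (adjusted p = 0.197) (Gstt3), 0.30 ± 0.11 (adjusted p = 0.0708) (Gstk1) and -0.21 ± 0.16 (adjusted p = 0.36) (Gsto2). Sequence similarity within the mu and theta classes means that probes may not separate all members.

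Sustentacular cell genes had higher sums on the OBX arrays. The summed signal of 8 tested genes of 9, such as Cyp2g1, was 82280 to 90816 in Lip-O sham and 93321 to 102641 in Lip-O OBX mice, and 79587 to 81160 in Lip-C sham and 87723 to 93972 in Lip-C OBX mice. Of the 8, 2 rose after OBX in Lip-O mice and 1 in Lip-C mice. Over all genes 10.7% were called higher after OBX in Lip-O mice and 10.3% in Lip-C mice, the background for each list here. Bowman gland genes (6 tested of 8) summed to 66083 to 77626 in Lip-O sham and 76074 to 86962 in Lip-O OBX mice, with 3 called higher. In Lip-C mice they summed to 71490 to 73093 in sham and 82447 to 87847 in OBX mice, with 2 called higher. Horizontal basal cell genes such as Krt5 (6 tested of 6) summed to 3117 to 3959 in Lip-O sham, 4625 to 4807 in Lip-O OBX, 2643 to 3384 in Lip-C sham and 3866 to 4971 in Lip-C OBX mice, with 3 called higher after OBX in Lip-O mice and 4 in Lip-C mice. Ensheathing and Schwann cell genes such as Sox10 (6 tested of 8) summed to 7564 to 9906 in Lip-O sham, 11682 to 12587 in Lip-O OBX, 8635 to 10225 in Lip-C sham and 11251 to 12144 in Lip-C OBX mice, with 2 and 3 called higher. For both lists the OBX arrays lay above the sham arrays in each liposome treatment. Liver genes such as Alb (4 tested of 8) summed to 143 to 161 in Lip-O sham, 429 to 1924 in Lip-O OBX, 104 to 166 in Lip-C sham and 162 to 250 in Lip-C OBX mice, with 3 called higher after OBX in Lip-O mice. The parts of these cells in the transferase counts were not tested.

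Genes of glutathione synthesis and turnover, apart from Gclc, Gclm, Gsr and Slc7a11, showed 3 of 17 higher and none lower after OBX in Lip-O mice (17.6%, with 19.6% over all genes), and 2 higher and 1 lower in Lip-C mice (17.6%, with 19.2%), so both shares lay near the background. The 2 were 0 without replicate 1 of Lip-C OBX, and 1 without replicate 2 of that group or replicate 2 or 3 of Lip-C sham. The gene that fell lost its call when any 1 of 9 arrays was left out. Oplah, which opens 5-oxoproline back to glutamate in the glutathione cycle, rose in Lip-O mice from 586 ± 59.4 to 902 ± 25.9 (SD, n = 3 each), with a log2 difference of 0.61 ± 0.12 (adjusted p = 0.00795), and gave 0.26 ± 0.12 (adjusted p = 0.158) in Lip-C mice. Ggt7, of the gamma-glutamyl transferase family, rose in Lip-O mice from 3137 ± 132 to 4634 ± 624 (SD, n = 3 each), with a log2 difference of 0.55 ± 0.11 (adjusted p = 0.00912), and gave -0.29 ± 0.11 (adjusted p = 0.0992) in Lip-C mice. Anpep, an aminopeptidase that can split the cysteinyl-glycine left from glutathione, rose in Lip-O mice from 153 ± 25.1 to 234 ± 27.7 (SD, n = 3 each), with a log2 difference of 0.57 ± 0.12 (adjusted p = 0.0118), and in Lip-C mice, 0.59 ± 0.12 (adjusted p = 0.0124), where the call was lost without replicate 1 of Lip-C OBX (adjusted p of 0.0504). Chac1, which degrades glutathione, was the gene called with Lip-C in both sham and OBX mice, at 1.53 ± 0.17 (adjusted p = 0.00612) and 1.13 ± 0.17 (adjusted p = 0.0209). The second of these was lost without replicate 1 of Lip-O OBX, or 1 or 2 of Lip-C OBX (adjusted p up to 0.106).

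Among 21 tested other Nrf2 targets, 7 rose and 1 fell after OBX in Lip-O mice (38.1%, with 19.6% over all genes) and 4 rose and 1 fell in Lip-C mice (23.8%, with 19.2%), with medians of 0.36 and 0.16. The 7 were 4 without replicate 2 of Lip-O sham or any 1 of the Lip-O OBX arrays. The 4 were 2 without replicate 2 of Lip-C sham and 1 without replicate 2 of Lip-C OBX. Abcc3, an exporter of glucuronides, rose in Lip-O mice from 1255 ± 114 to 2239 ± 314 (SD, n = 3 each), with a log2 difference of 0.82 ± 0.11 (adjusted p = 0.00151), and in Lip-C mice, 0.45 ± 0.11 (adjusted p = 0.0206). Ephx1, microsomal epoxide hydrolase, rose in Lip-O mice from 7858 ± 626 to 10567 ± 720.3 (SD, n = 3 each), with a log2 difference of 0.43 ± 0.09 (adjusted p = 0.00835), and in Lip-C mice, 0.40 ± 0.09 (adjusted p = 0.0145). Nqo2, the relative of Nqo1 that uses a different reducing cofactor, rose in Lip-O mice from 237 ± 20.9 to 388 ± 23.4 (SD, n = 3 each), with a log2 difference of 0.67 ± 0.11 (adjusted p = 0.00393), whereas Nqo1 gave -0.32 there, and rose in Lip-C mice, 0.36 ± 0.11 (adjusted p = 0.0476). Abcc1, a glutathione-conjugate exporter, fell after OBX in both, with -0.41 ± 0.07 (adjusted p = 0.00375) in Lip-O and -0.49 ± 0.07 (adjusted p = 0.00445) in Lip-C mice. Ugdh, which makes UDP-glucuronate, rose in Lip-C mice from 7017 ± 529 to 9089 ± 273 (SD, n = 3 each), with a log2 difference of 0.37 ± 0.07 (adjusted p = 0.0102), and in Lip-O mice, 0.29 ± 0.07 (adjusted p = 0.0223). Of these second calls, Abcc3 was lost without replicate 2 of Lip-C sham or of Lip-C OBX, Ephx1 without replicate 2 of Lip-C OBX, Nqo2 without any 1 array other than replicate 3 of Lip-C OBX, and Ugdh without replicate 1 or 2 of Lip-O sham or 2 or 3 of Lip-O OBX (adjusted p up to 0.0677, 0.0573, 0.164 and 0.0733).

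Peroxide-removing genes numbered 4 higher of 19 after OBX in Lip-O mice (21.1%, with 19.6% of all genes called and 10.7% higher). In Lip-C mice 5 were higher (26.3%, with 19.2% called and 10.3% higher), and none fell in either. The 4 were 1 without replicate 1 or 3 of Lip-O sham or replicate 1 of Lip-O OBX. The 5 were 1 without replicate 2 of Lip-C sham or replicate 1 or 2 of Lip-C OBX, and 2 without replicate 1 or 3 of Lip-C sham. Gpx8, an endoplasmic reticulum peroxidase, rose in Lip-C mice from 829.5 ± 59.6 to 1518 ± 165 (SD, n = 3 each), with a log2 difference of 0.86 ± 0.13 (adjusted p = 0.00469), and gave 0.32 ± 0.13 (adjusted p = 0.0948) in Lip-O mice. Gpx5 rose in Lip-O mice from a level under the 40th percentile, 36.7 ± 18.5 (SD, n = 3), to 94.2 ± 22.4 (SD, n = 3) (adjusted p = 0.00958), and gave -0.06 ± 0.23 (adjusted p = 0.884) in Lip-C mice.

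NADPH-supplying genes showed 3 of 9 higher in Lip-O mice (33.3%, with 19.6% of all genes called and 10.7% higher). In Lip-C mice 2 were higher (22.2%, with 19.2% called and 10.3% higher), and none was lower in either. The 3 were 1 without replicate 1 or 3 of Lip-O OBX. The 2 were 0 without replicate 1 of Lip-C OBX, and 1 without replicate 2 of that group, replicate 2 of Lip-O sham or any 1 of the Lip-C sham arrays. The thioredoxin list had 2 of 10 called after OBX in Lip-O mice, both higher (20%, with 19.6% over all genes), and none in Lip-C mice (0%, with 19.2%). The 2 were 0 without replicate 1 or 2 of Lip-O OBX, and 1 without any other Lip-O array or replicate 1 of Lip-C sham. Heme and iron genes had 5 of 16 higher and 2 lower in Lip-O mice (43.8%, with 19.6% over all genes), and 2 higher and 1 lower in Lip-C mice (18.8%, with 19.2%). The 5 were 0 without replicate 3 of Lip-O sham or replicate 1 of Lip-O OBX, 1 without replicate 2 of Lip-O sham and 3 without replicate 3 of Lip-O OBX. The 2 that fell in Lip-O mice were 0 to 2, and the 2 that rose in Lip-C mice 0 to 2, when each array was left out.

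In the metallothionein and zinc list, without Mt1 and Mt2, 2 of 20 rose and 2 fell after OBX in each liposome treatment, or 20% called, where 19.6% of all genes were in Lip-O mice and 19.2% in Lip-C mice. The 2 that rose were 0 without replicate 3 of Lip-O sham or replicate 1 of Lip-O OBX in Lip-O mice. In Lip-C mice they were 0 without replicate 2 or 3 of Lip-C sham or replicate 1 or 2 of Lip-C OBX, and 5 without replicate 3 of Lip-C OBX. The 2 that fell were 1 to 2 in Lip-O mice and 1 to 3 in Lip-C mice when each array was left out. Mt3, a metallothionein best known from the brain, fell in Lip-O mice from a signal of 303 ± 55.8 (SD, n = 3) to 62.0 ± 5.97 (SD, n = 3) (adjusted p = 0.00114), where the second value lies under the arrays' 40th percentile, and the call held under every alternative run. In Lip-C mice it read 166 ± 62.4 (SD, n = 3) in sham and 105 ± 20.2 (SD, n = 3) in OBX mice (adjusted p = 0.143). Mt3 thus went the opposite way to Mt2 after OBX in Lip-O mice, on arrays where mature neuron genes were also lower, whose part in the Mt3 result was not tested. Slc30a9, of the zinc transporter family, fell after OBX in Lip-C mice from 2852 ± 45.6 to 2234 ± 97.3 (SD, n = 3 each), with a log2 difference of -0.35 ± 0.07 (adjusted p = 0.0101), and in Lip-O mice, -0.22 ± 0.07 (adjusted p = 0.048), a call lost without any 1 of 10 arrays (adjusted p up to 0.152).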

How the data were processed

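The deposited tables hold probe set intensity, linear, for 12 arrays and 45101 probe sets (64 controls). Per the labels' protocols, total RNA of snap-frozen tissue gave biotin-labelled cRNA for hybridisation. How probes were summarised is not stated in the sources used here. All columns of values were used, and groups and replicate numbers came from the sample titles.

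Values were transformed to log2(intensity + 16), which understates the change of dim genes. Controls were dropped. The filter, a signal over the 40th percentile of its array in 3 or more of 12, left 28986 probe sets. GEO's platform annotation names 1 gene for 34945 probe sets, several for 932 and none for 9160, and 34741 of the first were found in the reference gene table by gene identifier, with 0 symbols changed. The probe set with the highest mean stood for its gene (13628 genes). A second fit covered all 28986 probe sets.

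limma 3.58.1 (R 4.3.3) fitted 4 group means in 1 model over 12 arrays, with 8 residual and 2.56 prior degrees of freedom. Moderated two-sided tests covered 7 comparisons, with Benjamini-Hochberg adjustment over all features of each. The script was tested on simulated data. An exact permutation test of 3 arrays against 3 cannot go below 0.1, so none is given. Alternatives covered the pseudocount, the filter, quantile normalization, the rule for probe sets, moderation, the samples fitted, a replicate block and leaving out each array.

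Named genes are the 10 genes, Nfe2l2, Keap1, Bach1 and Mtf1, the 3 genes most like each called gene, and called genes of the wider lists, at most 8 per list and comparison. The 10 genes, the wider lists and the marker lists were chosen with earlier results of these data known. Promoter sequences are from RefSeq (GRCm38.p6).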

Additional observations from a re-analysis of the deposited data

How the results depend on the processing

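For the 10 genes, 1503 values from alternatives to 70 results gave 0 reversals of a called value, 59 lost calls and 7 gained ones. The 2 genes called for OBX in Lip-O mice became 1 with no filter, with every probe set tested, without moderation and with only the groups compared in the fit, and 1 to 4 when each array was left out. The 1 called in Lip-C mice became 0 with a pseudocount of 1, no filter, averaged probe sets, every probe set tested and no moderation, and 0 to 1 without an array. The 4 called for the main effect of OBX became 1 with no filter and 2 without moderation, and 1 to 4 without an array.

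Over all genes, OBX in Lip-O mice gave 4890 calls with every probe set tested and 1574 with only the groups compared, against 2676, and 1403 to 2793 without an array. OBX in Lip-C mice gave 1736 with no filter, against 2615, and 838 to 3030 without an array. The main effect of OBX gave 7499 with every probe set tested, against 4459. Lip-C in sham mice gave 56 with no filter, 548 with the stricter filter (60th percentile), 1449 with every probe set and 79 with only the groups compared, against 286, and 17 to 314 without an array. Lip-C in OBX mice gave 72 with the stricter filter, 7 without moderation and 2 with only the groups compared, against 47, and 7 to 76 without an array. The main effect of Lip-C gave 106 with no filter, 618 with every probe set and 126 without moderation, against 217, and 84 to 258 without an array. The interaction gave 1, 85 and 10 calls with no filter, the stricter filter and every probe set, against 0, and 0 to 155 without an array.

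For the 9 wider lists together, whose alternatives were chosen after seeing the data, OBX in Lip-O mice gave 28 with no filter and 22 with only the groups compared, against 45, and 17 to 46 without an array. OBX in Lip-C mice gave 8 to 29 without an array, against 24. Lip-C in sham mice gave 11 with a pseudocount of 64, 2 with no filter, 10 with the stricter filter, 3 with averaged probe sets, 11 with every probe set and 2 with only the groups compared, against 6, and 2 to 6 without an array. Lip-C in OBX mice gave 2 with a pseudocount of 64 or quantile normalization, 3 with the stricter filter or averaged probe sets and 0 without moderation or with only the groups compared, against 1, and 0 to 3 without an array. Where features tested or arrays fitted differ, the alternative's construction changes the count. Otherwise the cause was not tested.

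The titles number replicates 1 to 3 in every group, with no statement that a number is shared. Deviations from group means of same-numbered arrays correlated at -0.03 to 0.33 over 18 pairs, 11 of them over 0.1, and 9 of 12 arrays correlated best with their own number. The median was 0.13, against -0.09 for arrays of different numbers. Deviations within a group cancel out, so these medians are linked and the second is no independent baseline. Not every pair passed 0.1, so the numbers were not treated as pairs, though this rule does not exclude a structure shared by number. With the replicate number as a block, 2971 genes were called for OBX in Lip-O mice and 2997 in Lip-C mice, and no call of the 10 genes changed.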

Other observations

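Of 17 tested glucocorticoid-responsive genes, 7 rose and 0 fell after OBX in Lip-O mice (41.2%, with 19.6% over all genes), with a median of 0.54. In Lip-C mice 0 rose and 2 fell after OBX (11.8%, with 19.2% over all genes), with a median of -0.16. With Lip-C in sham mice 2 rose (11.8%, with 2.1% over all genes), with a median of 0.46, and this count ran from 0 to 5 when each array was left out, with 0 for 7 of the 12 arrays. None of the 17 was called in the interaction, where their median was -0.64 against 0.00 over all genes. Fkbp5, a co-chaperone that damps the glucocorticoid receptor, read 601 ± 35.6 (SD, n = 3) in Lip-O sham, 1022 ± 259.9 (SD, n = 3) in Lip-O OBX, 1068 ± 68.4 (SD, n = 3) in Lip-C sham and 582 ± 55.3 (SD, n = 3) in Lip-C OBX mice. It rose after OBX in Lip-O mice, 0.72 ± 0.17 (adjusted p = 0.0143), and fell in Lip-C mice, -0.86 ± 0.17 (adjusted p = 0.00927), with an interaction of -1.58 ± 0.23 (adjusted p = 0.0747). The rise was not called without replicate 1 of Lip-O OBX (adjusted p of 0.0589), and without that array none of the 17 was called higher. The Fkbp5 rise was also lost with averaged probe sets and with only the groups compared in the fit. The 7 were also 1 without replicate 3 of Lip-O sham or of Lip-O OBX, 2 without replicate 2 of Lip-O sham and 4 without replicate 2 of Lip-C sham. Glucocorticoids are known inducers of metallothionein genes, and no relation between both groups of genes was tested.

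Of 25 tested targets of ATF4, the factor of the amino acid response that also drives Slc7a11, 9 rose and none fell with Lip-C in sham mice (36%, with 2.1% over all genes), with a median of 0.46. In OBX mice 3 rose and none fell with Lip-C (12%, with 0.345% over all genes), with a median of 0.15. The 9 were 2 without replicate 3 of Lip-C sham, 3 without replicate 2 of Lip-C sham or replicate 2 or 3 of Lip-O sham, and 5 without replicate 1 of Lip-C sham. The 3 were 0 without replicate 1 of Lip-O OBX or replicate 2 of Lip-C OBX, and 1 without replicate 1 of Lip-C OBX. Phgdh, the first enzyme of serine synthesis, rose with Lip-C in sham mice from 805 ± 101 to 1550.5 ± 108 (SD, n = 3 each), with a log2 difference of 0.94 ± 0.13 (adjusted p = 0.0137), and held its call without any single array. Slc7a11 gave 0.38 ± 0.53 (adjusted p = 0.727) there.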
